A study of Mus musculus with 721 samples.

Results

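The 10 genes described here encode the core of the Nodal signalling pathway in the early mouse embryo. They were chosen by symbol (Nodal, Gdf3, Pcsk6, Tdgf1, Lefty1, Lefty2, Acvr1b, Acvr2b, Smad2 and Foxh1), and all 10 have 1 row each among the 24483 gene rows of the count table. Expression was measured by single-cell RNA sequencing in 721 hand-picked cells of wild-type C57Bl/6Babr embryos. There were 99 cells at E3.5, from 9 numbered embryos and 1 group without an embryo number. A further 250 cells of 13 embryos carry the stage label E6.5, and 82 of these cells have E6.75 in their titles. The others came from 5 embryos at E4.5 and 9 at E5.5. No group carried a mutation or a treatment. The trophectoderm had been removed at E3.5 and E4.5, the extra-embryonic ectoderm at E5.5 and the extra-embryonic tissues at E6.5, so a class of cells is represented only as far as the dissection left it.

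Nodal is a secreted ligand of the TGF-beta family. It is made as a precursor that convertases such as Pcsk6 cleave, and it signals through type I and type II activin receptors (Acvr1b and Acvr2b) together with the membrane-bound coreceptor Tdgf1 (Cripto). The receptors phosphorylate Smad2, which enters the nucleus and binds DNA with partners such as Foxh1. Lefty1 and Lefty2 are secreted relatives of the ligand that block it, and both are themselves targets of the pathway. In the mouse, Nodal signalling maintains the epiblast, patterns the visceral endoderm, including its anterior part, and is needed to form the primitive streak.

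The antagonists are close paralogs, which bears on every value given for them below. Lefty1 lies at chr1:180935022-180938400 and Lefty2 at chr1:180893108-180899103 (GRCm38, both on the + strand), 35.9 kb apart. Their spliced coding sequences (GENCODE, GRCm38) were of equal length, 1107 bases, and 90 bases differed (91.9% identity), 54 of them in the first 240 bases. A read from those bases can be told apart more easily than one from further on, and the longest identical stretch was 140 bases. Of all 100-base windows of the exons, as long as 1 read, 97 occurred in both genes, which were 5.85% of those of Lefty1 and 3.86% of those of Lefty2. The alignments had been filtered for mapping quality, and counts from the shared stretches are uncertain. Tdgf1 shared 3.17% of its windows with the pseudogene Tdgf1-ps1 and Pcsk6 1.08% with the overlapping model Gm45213, and the other 6 members shared none. Pcsk6 also overlaps Gm20684, Acvr1b a microRNA gene and Acvr2b an antisense gene, and the counting is not stated to have used the strand.

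The promoter of Tdgf1, the member with the highest level in the epiblast, is shown because it holds the motif of Foxh1, another member, at 2 places. The window runs from 250 bases before to 50 bases after the RefSeq start (GRCm38.p6, chr9:110946109-110946408, − strand), and capitals mark the motif AATNNACA.
Tdgf1: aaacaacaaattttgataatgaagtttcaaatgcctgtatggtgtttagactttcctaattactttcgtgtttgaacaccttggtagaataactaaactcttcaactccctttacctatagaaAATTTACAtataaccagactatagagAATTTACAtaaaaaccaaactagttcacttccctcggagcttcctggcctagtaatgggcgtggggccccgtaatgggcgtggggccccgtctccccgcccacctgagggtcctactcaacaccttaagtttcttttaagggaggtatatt
Both matches read AATTTACA. The motif or its reverse complement TGTNNATT occurred in 4012 of 32851 promoter windows of this length (12.2%). Windows for 5 members were searched (Nodal, Pcsk6, Tdgf1, Acvr1b and Acvr2b), and Tdgf1 alone among these 5 held it. The SMAD motif CAGAC, or GTCTG on the other strand, was found in the windows of Tdgf1 and Acvr2b, and in 49.6% of all windows. A match is a run of letters and no measure of binding.

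Cells were sorted into classes by clustering, with the 10 members and 28 other genes of the pathway left out of it, and clusters were named from lists of marker genes. Cells at E3.5 formed 1 class, named the inner cell mass (ICM) from the stage and not from markers. At E4.5 there were 26 epiblast-like and 79 primitive endoderm (PrE)-like cells. At E5.5 all but 8 endoderm-like cells were epiblast-like, and at E6.5 all but 41 endoderm-like and 23 primitive streak-like cells. The embryo was the replicate: the counts of each class were summed within it where 3 or more cells were present. Levels are CPM, counts scaled to 1000000 per sum after TMM normalization. The 22 endoderm markers summed to 13489 to 22559 CPM in PrE-like sums and 9292 to 33764 in E6.5 endoderm-like sums, but also to 524 to 6814 in E6.5 epiblast-like sums. The 18 streak markers summed to 1706 CPM in the streak-like class and 65 to 433 in the E6.5 epiblast-like sums, with Msgn1 at 0 in both. The 13 epiblast markers summed to 2771 to 6436 CPM in the epiblast-like sums of E4.5 to E6.5 and to 4193 in the streak-like sum, and the 6 trophoblast markers to at most 989 CPM in any sum. A cell had 66896 to 3792936 counts in total (median 692863). All 23 streak-like cells came from 1 E6.5 embryo. At E6.5, 9 embryos have a plate name in their titles and 4 have none, and the epiblast-like cells of the former had a median of 5837 genes detected against 8045.5 in the latter.

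**Figure D1:**
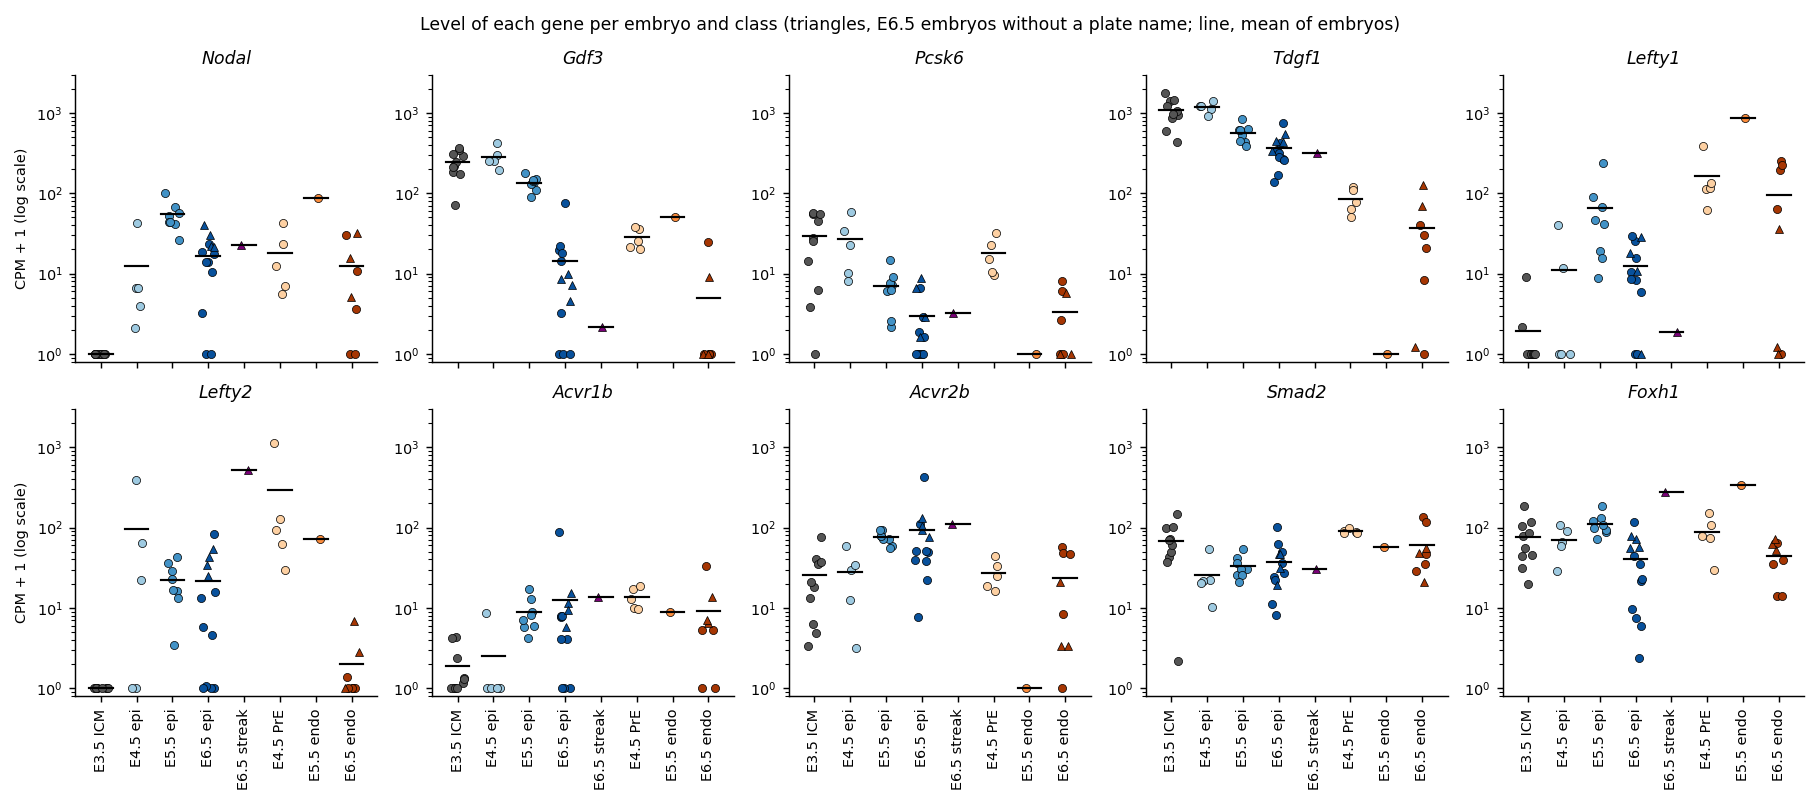
Level of each of the 10 genes (CPM + 1, log axis) in each class of cells; each point is the sum over 1 embryo, triangles are E6.5 embryos without a plate name, and lines mark class means. Nodal and Lefty2 are at 0 in all 10 sums at E3.5, Tdgf1 and Gdf3 are high from E3.5 to E5.5 in the epiblast, and Lefty2 is at 514.3 CPM in the streak-like sum.

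The ligand Nodal was not detected at E3.5 and was present from E4.5 onwards. No count was found in any of the 99 ICM cells (0 of 58421534 counts summed over the class). A floor of 3 counts is 0.0514 CPM there, and the exact 95% upper limit is 0.0631 CPM. Folds given as at least a value, here and below, set a pooled level against such a floor and hold no spread between embryos. At E4.5 the level was 1.11, 41.9, 5.69, 5.65 and 2.91 CPM in the epiblast-like sums of embryos 1 to 5, so that embryo 2 stood above the others. Against this floor, Nodal was at least 154.7-fold higher in the counts pooled over the E4.5 epiblast-like class and at least 78.1-fold higher without embryo 2, and it passed the test between these stages (adjusted p = 8.95e-07 by the quasi-likelihood test of edgeR, adjusted by Benjamini and Hochberg (BH) over 13387 genes). Here and below, passing needs an adjusted p up to 0.05, together with an absolute log2 fold change above 2 between the E4.5 lineages and above 1 elsewhere. At this step 20.8% of the genes tested passed, 12.7% higher and 8.03% lower at E4.5, and 2 of the 10 members did, both higher.

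In the 8 sums of the E5.5 epiblast Nodal ranged from 25.3 to 100.6 CPM with a median of 47.5 (mean 53.5 ± 22.7, SD). In the E6.5 epiblast it ranged from 0 to 39.5 CPM with a median of 16.6 (mean 15.7 ± 11.5, SD, n = 13). The groups overlapped at both steps, and neither passed (log2 fold change 2.13 ± 1.0 (SE), BH-adjusted edgeR p = 0.211 from E4.5 to E5.5, and −1.74 ± 0.70, adjusted p = 0.115 from E5.5 to E6.5). The earlier step turned on embryo 2 of E4.5: without it the log2 fold change was 3.74 and passed (adjusted p = 0.0476 by edgeR), as it did with sums of at least 5 cells (3.96, adjusted p = 0.0258). The other 12 of 14 alternatives did not pass. Nodal transcripts were found in 59.8% of E5.5 epiblast-like cells (exact 95% interval 53.6 to 65.9%), with 37.8 to 82.4% in the single embryos. At E6.5 it was found in 89 epiblast-like cells (47.8%), and all 89 also had a count of the coreceptor Tdgf1, which 95.7% of the class had.

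Nodal transcripts were not restricted to the epiblast. The PrE-like sums of embryos 1 to 5 had 41.2, 22.4, 11.5, 5.99 and 4.57 CPM, overlapping the epiblast-like sums of the same embryos (log2 difference 0.54 ± 0.96, BH-adjusted edgeR p = 0.772). At E6.5 the endoderm-like sums ranged from 0 to 31.2 CPM, again overlapping the epiblast (log2 difference −0.35 ± 0.97, adjusted p = 0.875 in the same edgeR test). The streak-like sum held 21.7 CPM, within the 20.7 to 39.5 CPM of the 4 epiblast-like sums of the same batch, that without a plate name.

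Gdf3, a related ligand of the same family, followed another course. It was already present in the ICM at 71.3 to 367.3 CPM (mean 241.4 ± 88.8, SD, n = 10) and held 426.8, 294.6, 248.4, 194.5 and 248.8 CPM in the E4.5 epiblast-like sums. In the PrE-like sums of the same 5 embryos it stood at 19.2, 20.5, 34.8, 37.02 and 24.4 CPM, below the epiblast in each of them. This was a fall of 3.40 ± 0.30 (SE) on the log2 scale (BH-adjusted edgeR p = 1.50e-05). In this lineage comparison 8.57% of 10086 genes passed, 5.43% higher and 3.13% lower in PrE-like cells, and of the members 1 was higher (Lefty1) and 2 were lower (Tdgf1 and Gdf3) in PrE-like cells, with a median log2 difference of 0.42 over the 10 members against 0.09 over all genes tested.

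From E5.5 to E6.5 Gdf3 fell in the epiblast. Levels ranged from 90.1 to 176.1 CPM at E5.5 (median 137.2, n = 8) and from 0 to 73.8 CPM at E6.5 (median 7.63, n = 13), with no overlap. The log2 fold change was −3.26 ± 0.55 (SE; BH-adjusted edgeR p = 7.19e-05), at a step where 8.57% of the genes passed, 3.84% higher and 4.73% lower, and 2 members, Gdf3 and Foxh1, did, both lower. The median log2 fold change was −1.01 over the members and 0.02 over all genes. Gdf3 was found in 88.8% of E5.5 epiblast-like cells (exact 95% interval 84.3 to 92.4%) and in 21.5% of those of E6.5 (15.8 to 28.1%). These shares were 88% and 20% when each cell was thinned to 300000 counts and shallower cells were left out. The earlier step from E4.5 to E5.5 did not pass (log2 fold change −1.15 ± 0.68, adjusted p = 0.359 by edgeR), although the values of the 2 stages did not overlap.

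Pcsk6, a convertase that processes the Nodal precursor, was low throughout. It averaged 28.2 ± 22.6 CPM in the ICM (n = 10), 25.6 CPM in the E4.5 epiblast (7.16 to 57.4, n = 5), 5.98 ± 3.99 CPM at E5.5 (n = 8) and 1.93 ± 2.69 CPM at E6.5 (n = 13). No step passed (from E4.5 to E5.5, log2 fold change −2.15 ± 1.06, BH-adjusted edgeR p = 0.235). It was found in 53.5% of ICM cells and 15.6% of E6.5 epiblast-like cells.

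The coreceptor Tdgf1 was higher in the epiblast than in the endoderm lineage at both stages that hold both. It ranged from 432.3 to 1777 CPM in the ICM (median 1009) and held 1108, 1418, 917.8, 1210 and 1229 CPM in the E4.5 epiblast-like sums of embryos 1 to 5. In the PrE-like sums of the same embryos it held 49.4, 119.6, 75.8, 109.2 and 62.03 CPM, lower in 5 of 5. The difference was a log2 of −3.84 ± 0.28 (SE; BH-adjusted edgeR p = 1.66e-06).

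Tdgf1 also separated the lineages at E6.5. Epiblast-like sums ranged from 137.7 to 740.4 CPM (median 335, n = 13) and endoderm-like sums from 0 CPM upwards with a median of 24.4 (n = 8), lower in 8 of 8 embryos with both classes and without overlap. The log2 difference was −3.23 ± 0.67 (SE; BH-adjusted edgeR p = 0.00239). In this comparison 8.01% of 10460 genes passed, 4.80% higher and 3.21% lower in the endoderm, and of the members Lefty1 was higher and Tdgf1 lower in the endoderm (median over the members −0.40, over all genes −0.05). Within the embryos without a plate name alone the difference was −2.70 and did not pass (adjusted p = 0.116 in the same test), where 3 endoderm-like sums entered.

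Within the epiblast, Tdgf1 fell from E4.5 to E5.5, where its values were 382.5 to 829.8 CPM (median 570.3, n = 8) and no longer overlapped those of E4.5. The log2 fold change was −1.15 ± 0.29 (SE; BH-adjusted edgeR p = 0.00941), and 6.38% of the genes tested passed at this step, 3.64% higher and 2.74% lower, among the members Tdgf1 alone. It passed no further step (−0.59 ± 0.23 from E5.5 to E6.5, adjusted p = 0.0956 by edgeR). A Tdgf1 count was found in every E4.5 and E5.5 epiblast-like cell, in 95.7% of E6.5 epiblast-like cells and in all 23 streak-like cells. Among the 79 PrE-like cells 25 had a count (31.6%, exact 95% interval 21.6 to 43.1%), and 15 had at least 10 CPM. The 8 highest of the 79 held 96.6% of the CPM summed over these cells, and 31 of the 79 wells are labelled double. The streak-like sum held 315.8 CPM, just under the 335 to 540.9 CPM of the epiblast-like sums of its batch (log2 difference −0.55 ± 0.37, adjusted p = 0.9996 by edgeR).

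**Figure D2:**
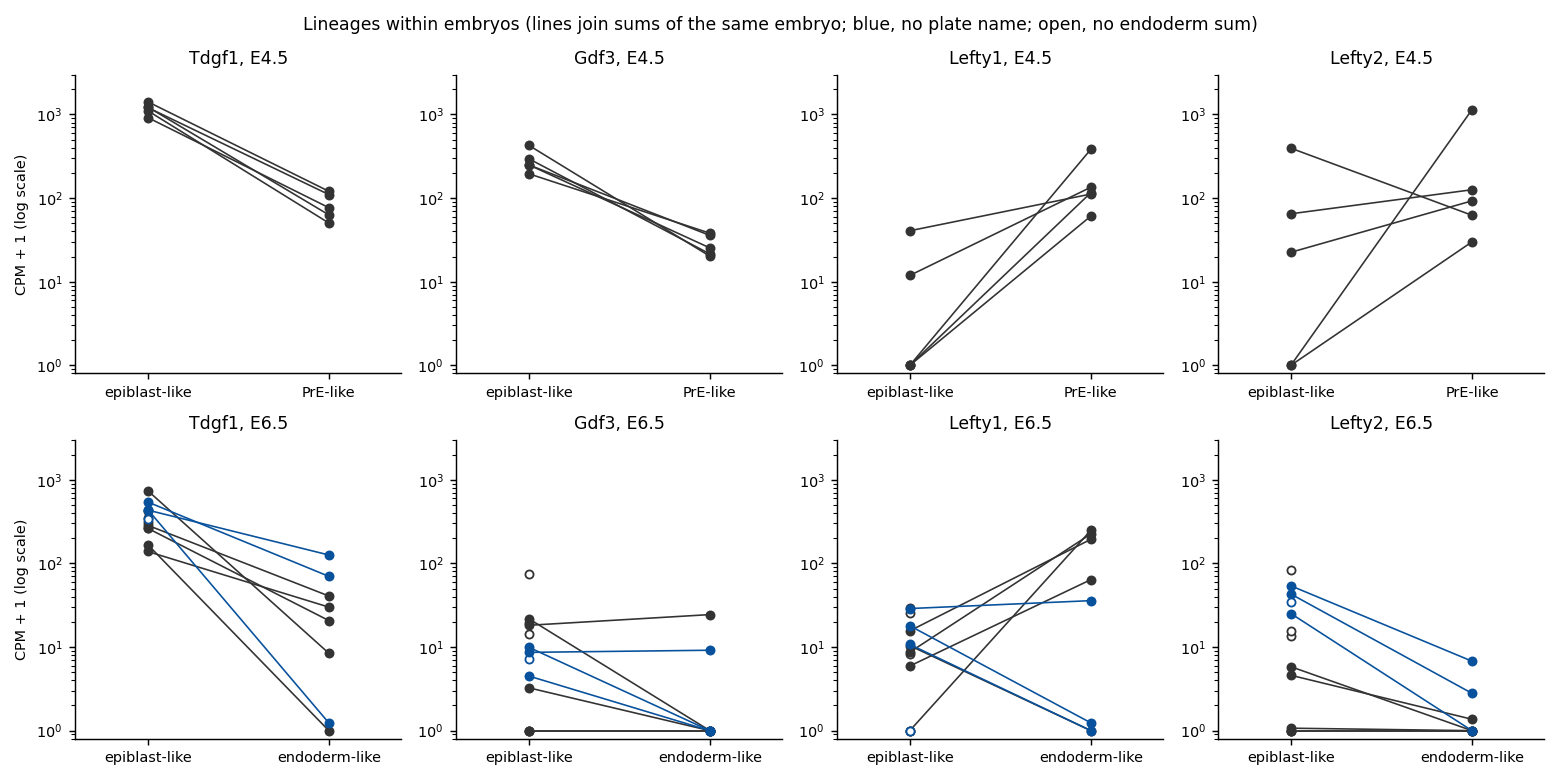
Levels of Tdgf1, Gdf3, Lefty1 and Lefty2 (y axis, CPM + 1, log scale) in the epiblast-like and the endoderm sum of an embryo (x axis), joined by a line, at E4.5 (5 embryos) and E6.5 (8 embryos; open points, no endoderm sum; blue, no plate name). Tdgf1 drops in all 13 embryos, whereas Lefty1 is higher in the endoderm in 5 of 5 embryos at E4.5 and 5 of 8 at E6.5.

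The antagonists were transcribed in different lineages at different stages. Neither was found at E3.5 beyond traces of Lefty1, which was at 0 in 8 of 10 sums and had a count in 3 of 99 cells. Lefty2 had no count in the ICM and was at least 2923-fold higher in the E4.5 epiblast-like class against the floor of 3 counts (BH-adjusted edgeR p = 1.50e-05), or at least 571.6-fold without embryo 5. That class varied strongly. Its 5 embryos had Lefty2 at 0, 21.5, 0, 63.9 and 394.1 CPM and Lefty1 at 0, 39.65, 0, 10.9 and 0 CPM.

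Both antagonists were transcribed in PrE-like cells in all 5 embryos at E4.5. Lefty1 held 383, 110.8, 115.2, 133.9 and 60.03 CPM in embryos 1 to 5, each above the highest epiblast-like value, and passed the lineage test (log2 difference 4.02 ± 1.21 (SE), BH-adjusted edgeR p = 0.0383). The call was lost without embryo 1 (adjusted p = 0.166), without embryo 3 (0.0876) or without embryo 4 (0.104), in each case by the same edgeR test with a positive difference. Lefty2 held 1138, 91.6, 28.9, 124.8 and 61.3 CPM and overlapped the epiblast-like sums (log2 difference 1.55 ± 1.33, adjusted p = 0.500 by edgeR). Its fitted difference was −0.66 without embryo 1, the embryo at 1138 CPM.

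Lefty1 and Lefty2 were often found in the same PrE-like wells. A count of either was found in 44 of 79 wells, and 29 (36.7%, exact 95% interval 26.1 to 48.3%) had both. The labels call 31 of the 79 wells double, and among the 48 others 26 had either and 15 had both (31.2%), against 14 of the 31 double wells with both (45.2%). Within the single embryos, Spearman's rho between the antagonists over 9 to 28 wells, double wells included, thinned to equal depth was 0.36 to 1 (median 0.69 over 5 embryos), and that between Nodal and Lefty1 was 0.14 to 1 (median 0.61). These are descriptions over cells of the same library preparation, and part of the Lefty1 and Lefty2 sequence is shared. Of the 27 PrE-like wells with Nodal, 2 had neither antagonist.

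At E5.5 Lefty1 was highest in the visceral endoderm. The 5 cells labelled as VE, all from embryo 7, gave the only endoderm sum of this stage, with Lefty1 at 855.8 CPM, Lefty2 at 70.2, Nodal at 87.5, Foxh1 at 336.5 and Tdgf1 and Acvr2b at 0. The epiblast-like sum of the same embryo held Lefty1 at 7.74 CPM and Tdgf1 at 829.8 CPM. This single sum was not tested against the epiblast. Of the 8 endoderm-like cells, 4 had Lefty1, at 2296, 1314, 588 and 186.6 CPM, and all 4 had a count of Cer1, a further Nodal antagonist that marks the anterior visceral endoderm. The other 4 cells had no Lefty1, and 1 of them had Cer1. The other markers of that region did not differ in this way: Hhex was at 10 CPM or more in 1 of 4 cells with Lefty1 and 1 of 4 without, and Dkk1 in 2 of 4 and 2 of 4. Foxh1 in the 4 Lefty1-positive cells ranged from 36.98 to 831.1 CPM and was highest in the cells highest in Lefty1.

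In the E5.5 epiblast, Lefty1 ranged from 7.74 to 239.3 CPM (median 42.8, n = 8) and Lefty2 from 2.47 to 41.96 CPM (median 18.7). Neither passed from E4.5 to E5.5 (log2 fold changes 2.60 ± 1.51 and −2.20 ± 1.32, BH-adjusted edgeR p = 0.345 and 0.372). An antagonist count was found in 52.9% of these cells, with Lefty1 alone in 27.4%, Lefty2 alone in 11.6% and both in 13.9%. Within embryos the cell-level rho between Nodal and Lefty1 was −0.12 to 0.50 (median 0.16) here, lower than its median of 0.61 in PrE-like cells, a difference that was not tested.

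**Figure D3:**
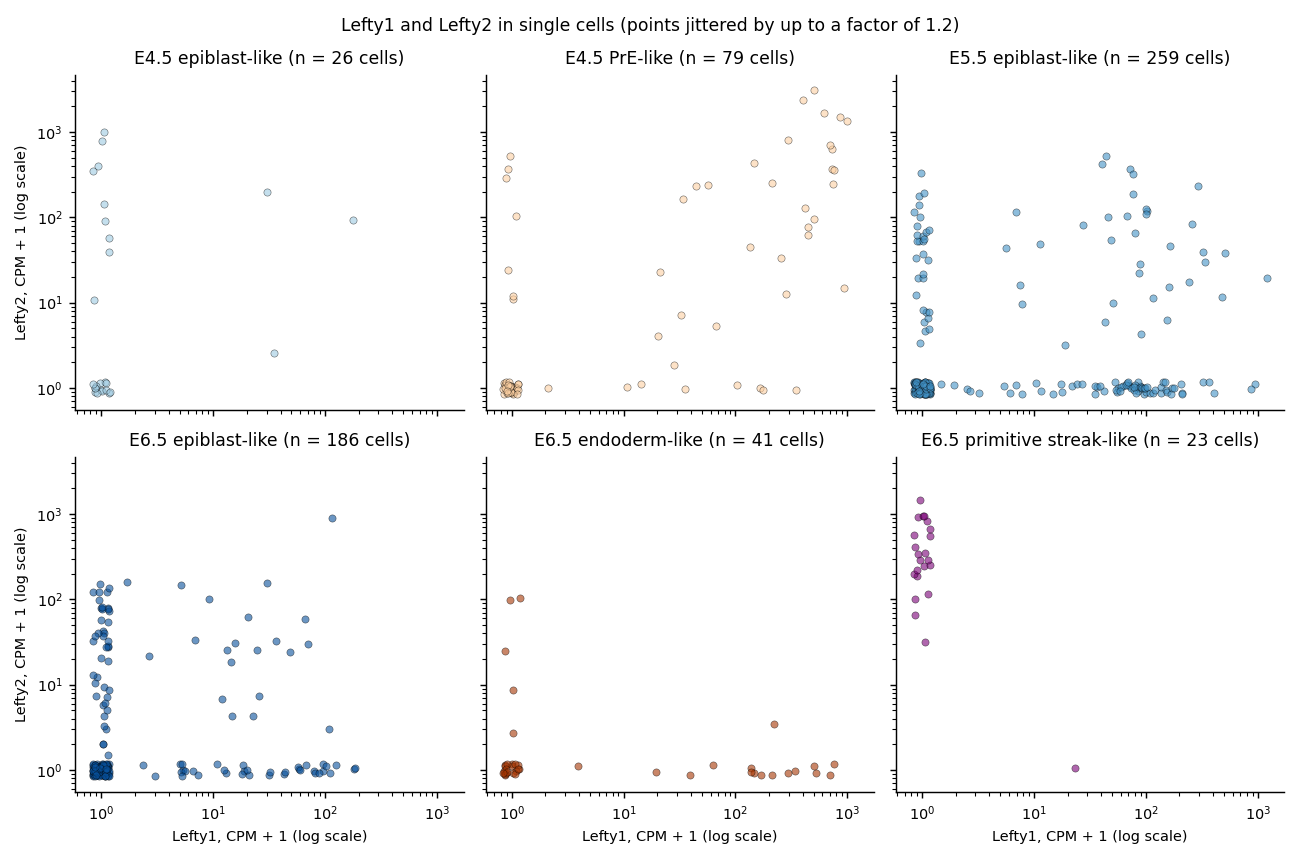
Lefty1 (x axis) against Lefty2 (y axis) in single cells (CPM + 1, both axes log) of 6 classes, 1 panel each, with points jittered. Streak-like cells lie along the Lefty2 axis with 22 of 23 having Lefty2 and none having both, while 29 of 79 PrE-like cells have both.

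At E6.5 the levels of the antagonists differed between the classes. In the streak-like sum Lefty2 stood at 514.3 CPM, above the 42.03, 33.5, 24.2 and 52.9 CPM of the 4 epiblast-like sums of its batch, and Lefty1 stood at 0.860 CPM. The log2 difference of Lefty2 was 3.66 ± 0.41 (SE; BH-adjusted edgeR p = 0.00674). It was the only member among the 8 genes of 13965 (0.0573%) that passed, all of them higher (0% lower), and the median over the members was −0.38 against −0.11 over all genes. The streak-like class has 1 sum, so its spread between embryos is unknown and is assumed to be that of the epiblast-like sums. Without the epiblast-like sum of embryo 1 the adjusted p was 0.0751, and with the embryo as a block over all E6.5 classes it was 1 (log2 difference 3.88), both by edgeR. Against the epiblast-like cells of its own embryo, at 33.5 CPM, Lefty2 was higher as well.

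Lefty2 was found in 22 of 23 streak-like cells (95.7%, exact 95% interval 78.1 to 99.9%) and Lefty1 in the remaining cell, so that each cell had an antagonist and none had both. Lefty2 reached 1305 CPM in 1 cell (median 303), and 19 of 23 cells had at least 100 CPM. Among the 84 epiblast-like cells of the same batch 50% had Lefty2, and after thinning to 300000 counts the shares were 94.4% of 18 streak-like cells and 44.9% of 69 epiblast-like cells of the batch. Of the 7 epiblast-like cells of the same embryo, 5 had Lefty2, 5 had either antagonist and 0 had both, so none had Lefty1. For the near absence of Lefty1, the streak-like class and this embryo can therefore not be told apart. All 23 streak-like cells come from 1 embryo, so the interval on their share holds no spread between embryos. The streak-like cells also had the most genes detected (median 9632), and endoderm markers summed to 2349 CPM there, within the 715 to 4015 CPM of the epiblast-like sums of the same batch. On a log scale, which weights the markers equally, they stood higher, with a mean log2(CPM + 1) of 5.16 per cell against 2.99 in the cluster that holds the epiblast-like cells of that batch, and the anterior visceral endoderm markers at 5.43 against 0.90. Sox17 (47.8 CPM) and Gata4 (47.4 CPM) were also above all 4 epiblast-like sums, which reached 35.5 and 18.98 CPM. The part of these in the Lefty2 level was not tested.

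In the E6.5 endoderm-like sums on plates the order was the opposite, with a mean of 145.6 CPM for Lefty1 and 0.0737 for Lefty2 (n = 5). In the 3 sums without a plate name, the batch of the streak-like cells, the medians were 0.238 CPM for Lefty1 and 1.80 for Lefty2. Lefty2 was at 0 in 5 of 8 endoderm-like sums and at most 5.77 CPM, down from 28.9 to 1138 CPM at E4.5, without overlap. This was a fall of 8.17 ± 1.18 (SE) on the log2 scale (BH-adjusted edgeR p = 3.10e-04), and Lefty2 was the only member among the 7.82% of 10390 genes that passed between these stages (4.20% higher and 3.62% lower). Against the E6.5 epiblast, Lefty2 was lower in 6 of 8 embryos and at 0 in both classes of the other 2, and it did not pass (−4.31 ± 1.51, adjusted p = 0.0701 by edgeR), while 4 of 13 alternatives passed. The difference ranged from −6.99 to −1.10 over these, with adjusted p from 0.00617 with DESeq2 to 0.678 with sums of at least 1 cell. The change of its lineage difference from E4.5 to E6.5 did not pass either (−5.92 ± 2.08, adjusted p = 0.131 by edgeR's interaction test). There 0 members passed, by edgeR or by DESeq2, and 2.10% of 12415 genes did by edgeR (0.709% higher and 1.39% lower), and the unadjusted p was under 0.05 for Lefty2 alone.

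Lefty1 was retained in part of the E6.5 endoderm. The sums of the 5 embryos with a plate name held 247.6, 62.95, 0, 193.1 and 224.1 CPM, and those of the 3 embryos without one 34.8, 0.238 and 0 CPM. The E6.5 epiblast-like sums held 0 to 27.96 CPM (median 9.40, n = 13). Over all embryos Lefty1 passed (log2 difference 3.16 ± 1.02 (SE), BH-adjusted edgeR p = 0.0483), though it was higher in 5 of 8 embryos with both classes. The difference was 3.88 among embryos with a plate name (adjusted p = 0.0541) and −0.16 among those without (adjusted p = 0.970), and with the embryo as a block it was 1.36 (adjusted p = 0.780, all by edgeR).

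Markers of the anterior visceral endoderm differed with Lefty1 in part. The 3 marker genes (Hhex, Dkk1 and Cer1) summed to 3 to 1594 CPM (median 993) in the endoderm-like sums with a plate name and to 17 to 49 CPM (median 25) in those without. Of the 15 endoderm-like cells with Lefty1 at 10 CPM or more, 13 had Hhex and 13 had Cer1 at that level, against 5 and 9 of the 26 other cells, and Dkk1 was at that level in 11 of 15 and 12 of 26. At E4.5, Hhex was at that level in 32 of 36 PrE-like cells with Lefty1 and 24 of 43 without, whereas Dkk1 was so in 34 of 36 and 40 of 43 and Cer1 in none of either. The part of the anterior visceral endoderm, the plate and the dissection in the Lefty1 difference was not tested.

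The type I receptor Acvr1b was barely detected in the ICM and the E4.5 epiblast, where 4 of 5 sums were at 0 and the fifth held 7.53 CPM. The PrE-like sums held 8.96, 12.1, 16.2, 8.68 and 17.6 CPM, all above the epiblast. The difference did not pass (log2 2.96 ± 1.38, BH-adjusted edgeR p = 0.182). It did with the embryo as a block (6.40, adjusted p = 0.0385 by edgeR), and in 2 of 14 alternatives in all. Acvr1b was found in 46 of 79 PrE-like cells (58.2%) and 2 of 26 E4.5 epiblast-like cells (7.69%). In the E5.5 and E6.5 epiblast it averaged 7.76 ± 4.27 (n = 8) and 11.7 ± 22.98 CPM (n = 13). The latter rests on embryo 6 of plate P2 at 86.8 CPM, without which the mean was 5.40 ± 4.45 CPM (n = 12). The markers of this epiblast-like sum were mixed. Sox17 (197.9 CPM) and Gata4 (148.3 CPM) were above the 68.75 and 107.8 CPM of the endoderm-like sum of the same embryo. Pou5f1 (424.2 against 57.5 CPM) and Ttr (519.5 against 2892 CPM) went with the name of the class. The part of these in the Acvr1b level was not tested.

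The type II receptor Acvr2b was present in every class except the E5.5 VE sum. Its mean was 24.5 ± 22.5 CPM in the ICM (n = 10), 74.2 ± 13.7 CPM in the E5.5 epiblast (n = 8) and 91.4 CPM in the E6.5 epiblast (n = 13, median 50.5), where the values ranged from 6.71 to 426.3 CPM. It was lower in the E6.5 endoderm in 7 of 8 embryos, with 0 to 56.5 CPM, and did not pass (log2 difference −1.93 ± 0.75, BH-adjusted edgeR p = 0.108). DESeq2 gave an adjusted p of 0.0240 there. Of 13 alternatives, by edgeR or DESeq2, 3 passed and 10 did not. The log2 difference was −3.51 to −1.42 over these, with adjusted p from 0.0184 to 0.504. No step between stages passed.

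Smad2, the receptor-regulated effector (chromosome 18), was higher in PrE-like than in epiblast-like cells. The PrE-like sums held 86.3, 83.9, 90.1, 97.4 and 83.5 CPM in embryos 1 to 5, a narrow range, and the epiblast-like sums 21.5, 9.36, 20.75, 52.6 and 19.5 CPM, without overlap. The log2 difference of 1.80 ± 0.41 (SE) had a BH-adjusted edgeR p of 0.00866 but lay under the limit of 2 set for this comparison, and with the embryo as a block it was 2.01 (adjusted p = 0.00941) and passed. At E6.5 the lineages overlapped, with 20.1 to 132.4 CPM in the endoderm and 7.20 to 101.5 CPM in the epiblast (0.81 ± 0.45, adjusted p = 0.294 by edgeR). Smad2 did not pass from E3.5 to E4.5 (−1.46 ± 0.60, adjusted p = 0.0713 by edgeR), but it did, lower at E4.5, with DESeq2 (−1.49, adjusted p = 0.0204) and in 5 of 15 alternatives in all, over which the adjusted p was 0.00729 to 0.169.

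Foxh1, the DNA-binding partner of Smad2, was present in all classes. It ranged from 18.98 to 183.1 CPM in the ICM (median 66.2, n = 10), from 28.1 to 105.4 CPM in the E4.5 epiblast (n = 5) and from 71.1 to 183.6 CPM in the E5.5 epiblast (median 101.3, n = 8). In the E6.5 epiblast it fell to 1.41 to 115.5 CPM (median 34.03, n = 13), a log2 fold change of −1.44 ± 0.47 (SE; BH-adjusted edgeR p = 0.0401). The 9 E6.5 embryos with a plate name averaged 28.5 ± 35.5 CPM and the 4 without 64.7 ± 10.9 CPM. With the latter alone the change was −0.79 (adjusted p = 0.547 by edgeR), and with sums of at least 5 cells the adjusted p was 0.0514.

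In the streak-like sum Foxh1 stood at 276 CPM, above the 55.01 to 77.2 CPM of the 4 epiblast-like sums of its batch. The log2 difference was 2.0 ± 0.38, and it did not pass (p = 2.69e-04, BH-adjusted p = 0.237 by edgeR). Of 16 alternatives, 2 passed, DESeq2 and edgeR without the epiblast-like sum of embryo 2, and 14 did not. The log2 difference was 1.77 to 2.66 over the 16. Foxh1 was found in all 23 streak-like cells, at 65.9 to 491 CPM, as in all 84 epiblast-like cells of the same batch, against 47.1% of those on plates.

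**Figure D4:**
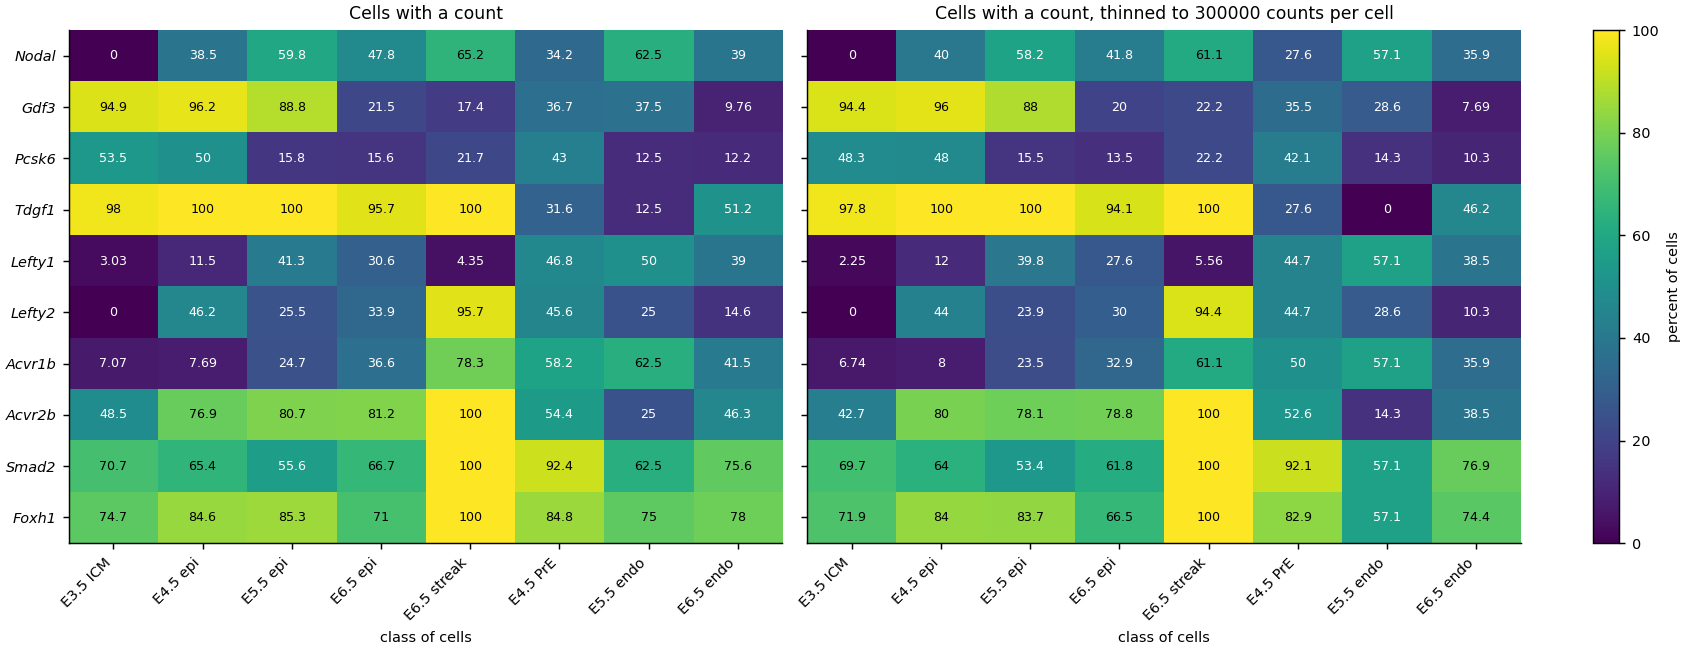
Percent of cells of each class with at least 1 count of each of the 10 genes, as deposited (left) and after thinning each cell to 300000 counts (right). Tdgf1 is found in all E5.5 epiblast-like cells, Lefty2 in 95.7% of streak-like cells and Gdf3 in 88.8% of E5.5 but 21.5% of E6.5 epiblast-like cells.

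The coreceptor, the 2 receptors among the members and Smad2 were found together in most streak-like cells. The share differed between the batches of E6.5. Other receptors and Smads of the pathway were not counted here, so the share is no measure of which cells can receive the signal. Counts of Tdgf1, Acvr1b, Acvr2b and Smad2 occurred in the same cell in 18 of 23 streak-like cells (78.3%, exact 95% interval 56.3 to 92.5%), all of 1 embryo. They did so in 46 of the 84 epiblast-like cells without a plate name (54.8%), the batch of the streak-like cells, in 3 of the 7 of the same embryo, and in 7.84% of the epiblast-like cells on plates. The share was 12.4% in the E5.5 epiblast, 11 of 79 in PrE-like cells (13.9%), 2 of 26 in the E4.5 epiblast (7.69%) and 3 of 99 in the ICM (3.03%). With cells thinned to 300000 counts, it was 61.1% in 18 streak-like cells (35.7 to 82.7%) and 49.3% in 69 epiblast-like cells of their batch. The interval is over cells of 1 embryo and holds no spread between embryos, so it cannot compare the classes. The streak-like cells had the most genes detected, as given above, and the part of that in these shares was not tested. Nodal itself was found in 15 of the 23 streak-like cells.

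Per kilobase of exon, Tdgf1 had the highest level of the members in the ICM (408.5 ± 155.3 CPM per kb, SD, n = 10), in the E4.5 epiblast (448.7 ± 69.7, n = 5), in the E5.5 epiblast (213.5 ± 55.3, n = 8) and in the E6.5 epiblast (137.6 ± 61.04, n = 13), above the second member in each embryo. The second was Gdf3 in the ICM and the E4.5 epiblast and Foxh1 later. In PrE-like cells the order depended on embryo 1: the mean was 110.6 ± 182.2 CPM per kb for Lefty2, 91.4 ± 72.4 for Lefty1 and 63.8 ± 32.8 for Foxh1 (n = 5), while the medians were 35.1, 65.6 and 56.4. Lefty2 was above Lefty1 in 1 of 5 embryos, and Lefty1 above Foxh1 in 4 of 5. In the E6.5 endoderm Lefty1 (54.2 ± 61.3 CPM per kb, n = 8) was above Foxh1 (31.6 ± 16.4) in 4 of 8 embryos, so their order did not hold between embryos. In the streak-like sum Foxh1 came first (202.2 CPM per kb), followed closely by Lefty2, and Tdgf1 came next at 120.4. Nodal was the fifth there, at 10.4 CPM per kb.

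The other pathway genes moved at several steps, and those that passed from E5.5 to E6.5 all rose. Of the 28 genes listed for the pathway besides the members, 25 were tested in the epiblast, and 8 rose and 0 fell at this step, where 8.57% of all genes passed (median log2 fold change 0.92 over the list against 0.02 over all genes tested). The antagonist Cer1, at 0 in all 8 E5.5 sums, was at least 2402-fold higher at E6.5 against 3 counts over the E5.5 class, or at least 1578-fold without embryo 6 of plate P2. Among the target genes, Eomes, a T-box factor of the streak and endoderm, rose by 3.47 ± 0.46 (SE) on the log2 scale (BH-adjusted edgeR p = 1.70e-06). Mixl1, Foxa2, Lhx1 and Gsc, transcription factors of the streak and endoderm, rose by 7.44, 7.54, 6.05 and 3.86, and Fst and Skil, both inhibitors in this family of pathways, by 2.58 and 1.66, all on the log2 scale. Skil stood at 189.4 ± 55.3 CPM at E5.5 (SD, n = 8), at 742.9 ± 332.5 CPM in the 9 E6.5 sums on plates and at 189.4 ± 26.8 CPM in the 4 without a plate name, so that the sums on plates alone lay above those of E5.5. The endoderm markers in the epiblast-like sums went from 313 to 524 CPM at E5.5 to 524 to 6814 CPM at E6.5, and their part in these rises was not tested.

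At the earlier steps, 5 of 25 listed genes rose and 1 fell from E3.5 to E4.5 (24% of the list, near the 20.8% of all genes). Otx2 rose by 3.90 ± 0.59 and Smad4, the common Smad, by 1.96 ± 0.56 on the log2 scale (BH-adjusted edgeR p = 3.48e-06 and 0.00843), and Gsc fell by 6.28 ± 1.74 (adjusted p = 0.00688 by edgeR). Fst had no count at E3.5 and was at least 213.2-fold higher at E4.5, and likewise Foxa2 at least 14.4-fold, with 3 counts left over the E4.5 class without embryo 4. From E4.5 to E5.5 the related ligand Gdf1 alone passed by edgeR (1 of 25, where 6.38% of all genes did), rising by 3.99 ± 1.10 (adjusted p = 0.0195 by edgeR) from 3.74 ± 5.18 to 62.4 ± 17.4 CPM, a step at which Gdf3 did not pass. By DESeq2, Eomes passed there as well, lower at E5.5 (31.2 ± 14.4 to 11.8 ± 6.92 CPM).

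Between the lineages, PrE-like cells had Foxa2 higher by 5.84 ± 0.99 on the log2 scale (BH-adjusted edgeR p = 0.00127) and Lhx1 at least 38.1-fold higher, with no Lhx1 count in E4.5 epiblast-like cells. They had Otx2, Tgif1 and Tgif2 lower by a log2 of −4.52, −2.10 and −2.04, the last 2 being repressors that bind Smads. In all, 2 of 18 listed genes tested were higher and 3 lower, where 8.57% of all genes passed. At E6.5, Lhx1, Foxa2, Cer1 and Mixl1 were higher in the endoderm by 3.51, 3.30, 3.06 and 3.00, 4 of the 24 tested, and 0 were lower, where 8.01% of all genes passed. Cer1 differed between embryos. On plates the endoderm-like sums held 560.8, 238.5, 2.44, 944 and 862.1 CPM, and the epiblast-like sums of the same embryos 2.45, 35.7, 212.9, 30.6 and 16.3 CPM. Without a plate name these were 1.24, 9.29 and 16.98 CPM in the endoderm and 4.06, 6.56 and 29.5 CPM in the epiblast.

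Within the endoderm from E4.5 to E6.5, 7 of 23 listed genes rose and 0 fell, and of the 10 members 1 fell (Lefty2) and 0 rose, where 4.20% of all genes were higher and 3.62% lower. By DESeq2, 11 of the 23 rose, but these shares are those of edgeR, and DESeq2 passed more genes in all at this step. Mixl1, Lhx1, Otx2, Eomes, Skil and Foxa2 rose by 9.96, 6.18, 5.89, 1.80, 1.69 and 1.54 on the log2 scale. Cer1 went from 3 counts over all PrE-like sums to 10209 over the endoderm-like sums. Of the listed genes, the lineage difference of Otx2 changed between the stages by edgeR (interaction 4.27 ± 0.87, BH-adjusted p = 0.00605). This was 1 of 25, where 2.10% of all genes passed. By DESeq2, which passed more genes in all here too, the lineage differences of Otx2 and Cfc1 changed. For the streak-like sum 0 of the 25 listed genes passed by edgeR's test, with 7 at an unadjusted p under 0.05, and 1 passed by DESeq2, lower.

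**Figure D5:**
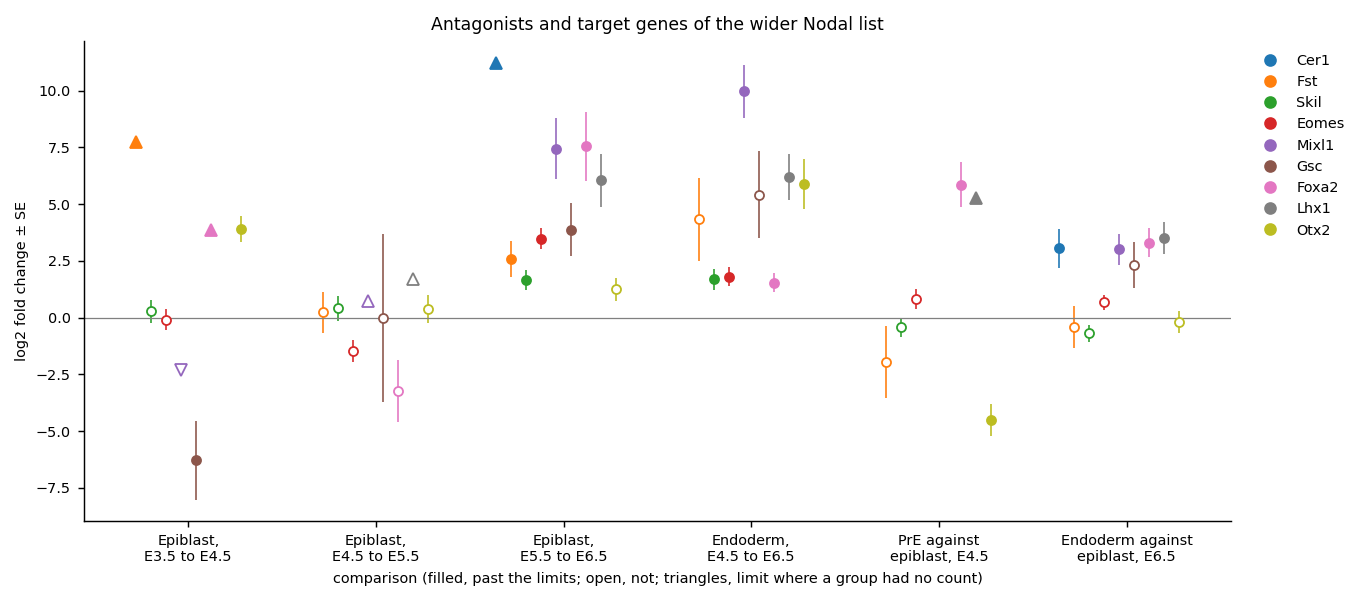
Log2 fold change ± SE (y axis) of 9 antagonist and target genes of the pathway in 6 comparisons (x axis); filled points passed, open points did not, and triangles are limits against 3 counts where a group had no count. Genes without a count in either group and Cer1 in the endoderm, with 3 counts at E4.5, are left off; the filled points at the step from E5.5 to E6.5 are all above 0.

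The genes most like the members across the 51 class sums were sought among 8408 genes by Pearson's r of log2(CPM + 1). Tdgf1 was most like Gm19553 (r = 0.88), the pluripotency factor Pou5f1 (0.87) and Slc35f2 (0.83), and Gdf3 was most like Dppa4 (0.91), Gm10244 (0.89) and Mkrn1 (0.87). For Nodal these were Eno1 (0.76), Tmem132a and Tpi1 (both 0.74), for Foxh1 Tarbp2 (0.73), Gm14872 and Sh2b1 (both 0.66), for Lefty1 Akr1c19 (0.78), Lrrn4 (0.68) and Meis3 (0.66), and for Lefty2 Pfkm (0.69), Hspg2 (0.69) and C2cd3 (0.68). Nodal itself had r = 0.57 with Lefty1 and 0.51 with Lefty2. The sums share embryos, batches and depth, so these values are descriptions.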

How the data were processed

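Single cells of wild-type mouse embryos were picked by hand, their mRNA was amplified by the G&T-seq protocol, and 100 bp paired reads were sequenced. The authors trimmed the reads (Trim Galore; the submitters' notes give 0.4.3), aligned them to GRCm38 with HISAT2 (2.0.5 in those notes), removed non-primary alignments and those with a mapping quality under 20, and counted reads on genes with SeqMonk. The deposited table holds these counts, unnormalized, for each gene in each cell. Cells with fewer than 4000 genes or over 10% mitochondrial reads had been removed, and 128 cells labelled as double were kept here. The depth was 66896 to 3792936 counts per cell. Intervals on counts and shares cover counting error only.

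The members and gene lists were chosen with earlier results of these data known. All 10 members and, of 28 further pathway genes, those past the limits are named, except for 1 item that is not reported here. Stage and embryo came from the titles. The 82 cells with E6.75 in their titles stayed with E6.5, embryos without a plate name were taken as distinct from same-numbered embryos on plates, and the 9 E3.5 cells without an embryo number formed 1 sum.

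Cells were clustered by steps modelled on SC3 (Python 3.11.15, scikit-learn 1.9.0), into 8 clusters over all cells and 5 within E6.5, without the 38 pathway genes. Counts summed over at least 3 cells of a class and embryo were tested with edgeR 4.0.16 in R 4.3.3 (TMM factors, filterByExpr, the quasi-likelihood test, p-values adjusted by Benjamini and Hochberg over all genes tested). The streak-like class has 1 sum, assumed to vary like the others. SE is the size of the log2 fold change over the square root of F. In simulated counts with 200 genes changed 8-fold, 125 were recovered for the E4.5 lineages, 127 for the E6.5 lineages and 100 for the streak. In the epiblast 89 were recovered from E3.5 to E4.5, 97 from E4.5 to E5.5 and 135 from E5.5 to E6.5, and in the endoderm 101. Among the unchanged genes, 2, 2, 10, 0, 5, 9 and 2 were called in these comparisons, in the same order.

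Same-numbered sums of the lineages come from the same embryo. Their deviations from the class means correlated with r = 0.05 to 0.20 at E4.5 (5 embryos) and 0.05 to 0.24 at E6.5 (8 embryos), and sums of different embryos with −0.08 to 0.02 and −0.14 to 0.25. Alternatives were DESeq2 1.42.0, relative log expression factors, no filter, single cells only, other minimum numbers of cells, thinning to 300000 counts, Ward clustering, all classes in 1 fit, the embryo as a block, E6.5 embryos by plate, cells titled E6.75 left out and each embryo left out. After seeing the data, the block over all E6.5 classes, the omission of the E3.5 sum without an embryo number, means and folds without the highest embryo, shares by E6.5 batch and shares over wells not labelled double were added.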

Additional observations from a re-analysis of the deposited data

Results flagged for a closer look

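Within 20 of the 68 groups of 4 to 10 embryos in which a member was examined, 1 embryo lay far above the others by Dixon's test at its 95% critical value. In each it was the highest embryo. The critical value gives about 1 in 20 groups by chance only for normally distributed values, and the groups share embryos. CPM cannot be negative and some sums hold few or no counts of a gene, which favours a high outlying embryo over a low one. The number of such groups can therefore not be set against chance, and the embryos below are listed as descriptions.

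Among PrE-like sums, embryo 1 of plate P1 stood out for both antagonists, with Lefty1 at 383 CPM and Lefty2 at 1138 CPM, where the next highest for Lefty2 was 124.8 CPM. Among E4.5 epiblast-like sums, embryo 2 of plate P1 stood out for Nodal (41.85 CPM) and Lefty1 (39.65 CPM), embryo 5 of plate P2 for Lefty2 (394.1 CPM) and Acvr1b (7.534 CPM), and embryo 4 of that plate for Smad2 (52.56 CPM). In the ICM, embryo 4 of plate P8 stood out for Lefty1 (8.112 CPM) and embryo 3 of that plate for Acvr2b (75.47 CPM). In the E5.5 epiblast, embryo 3 of plates P7, P4 and P5 stood out for Lefty1 (239.3 CPM).

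Among the E6.5 epiblast-like sums with a plate name, embryo 9 of plate P3 was the highest for Gdf3 (73.78 CPM), Foxh1 (115.5 CPM) and Acvr2b (426.3 CPM). The others were embryo 1 of plate P1 for Lefty2 (82.01 CPM), embryo 2 of P1 for Tdgf1 (740.4 CPM), embryo 3 of P1 for Pcsk6 (5.633 CPM) and embryo 6 of P2 for Acvr1b (86.83 CPM). Among E6.5 endoderm-like sums, these were embryo 2 of the cells titled E6.75 for Lefty2 (5.774 CPM), embryo 8 of P3 for Gdf3 (23.41 CPM) and embryo 2 of P1 for Acvr1b (31.88 CPM).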

How the results depend on the processing

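Tdgf1 and Gdf3 between the E4.5 lineages, Nodal and Lefty2 from E3.5 to E4.5, Gdf3 from E5.5 to E6.5 and Lefty2 in the endoderm kept their direction under every alternative run, with the adjusted p over 0.05 only for Gdf3 between the E4.5 lineages with all classes in 1 fit (0.05172). For the 26 differences of members that passed or had an unadjusted p under 0.05, 311 of 371 alternative values kept direction and side of the limits, 28 fell below them, 31 came past them and 1, Lefty1 between the E6.5 lineages in embryos without a plate name (−0.16), reversed. Of the other 54 differences, 27 changed sign under an alternative without passing, Lefty2 between the E4.5 lineages (−0.66 without embryo 1) among them. Lefty1 between the E4.5 lineages also missed the limits with DESeq2 (adjusted p = 0.1069), single cells only (0.1588), Ward clustering (0.3181) and all classes in 1 fit (0.1115). Tdgf1 from E4.5 to E5.5 missed them with Ward clustering (−0.94) and all classes in 1 fit (adjusted p = 0.2205), and Lefty2 in the streak-like sum with single cells only (0.06314), sums of at least 5 cells (0.07507), Ward clustering (0.1834), all classes in 1 fit (1) and epiblast-like sums of all E6.5 embryos (0.6758). Lefty1 between the E6.5 lineages had adjusted p = 0.05225 with DESeq2, 0.06688 with single cells only, 0.1419 with sums of at least 5 cells and 0.05313 with sums of at least 1 cell, and Foxh1 from E5.5 to E6.5 had 0.107 with single cells only and 0.1154 with sums of at least 1 cell. The causes were not tested. The E5.5 endoderm and the streak-like class rest on 1 sum each, so no spread between embryos can be given for them.

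The number of genes past the limits moved by over 1.5 times as follows, given in percent of the number reported. Between the E6.5 lineages it was 156.1% with DESeq2, 202.1% without the filter, 29.24% with sums of at least 5 cells, 303.7% with all classes in 1 fit, 30.19% with plates only and 51.07% without cells titled E6.75. For the 8 genes of the streak-like sum it was 612.5% with DESeq2, 25% with single cells only, 12.5% with sums of at least 5 cells, 200% after thinning, 0% with Ward clustering, with all classes in 1 fit and with the replicate block over all E6.5 classes, 62.5% with all E6.5 embryos, 350% without cells titled E6.75, and 12.5% (without embryo 1) to 250% (without embryo 2) with 1 epiblast-like sum left out. From E5.5 to E6.5 it was 266.8% without the filter, 165.4% with sums of at least 5 cells, 185.2% with all classes in 1 fit and 19.7% without plates. In the endoderm it was 162.2% with DESeq2, 66.26% with sums of at least 1 cell, 234.6% with all classes in 1 fit and 154.3% without plates. For the interaction it was 222.6% with DESeq2, 36.78% and 59% with sums of at least 5 and 1 cells, 57.47% with Ward clustering and with plates only, 185.8% with all classes in 1 fit, 56.7% without cells titled E6.75 and 39.85% to 65.13% with 1 E4.5 embryo left out. With the embryo as a block, 975 genes passed between the E4.5 lineages (864 without) and 682 between the E6.5 lineages (838 without), and it changed no member's call other than those given above.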
